A study of Mus musculus with 9 samples.

Results

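The 10 genes described here are induced by interferon-gamma, and were measured by bulk RNA sequencing in 9 liver tumors grown from Hepa1-6, a mouse hepatoma cell line. They were chosen by name: Gbp2, Gbp3, Gbp4, Gbp5 and Gbp7, Irgm1, Igtp and Iigp1, the transcription factor gene Irf1 and the enzyme gene Ido1, that is 10 of the 52176 gene symbols in the tables. The value of a gene in a tumor was the sum of FPKM (sequenced fragments scaled by transcript length and by the mapped fragments of the tumor) over the entries that name it, and groups were compared on log2(FPKM + 1). All 10 genes had a value above 0 in all 9 tumors, although that of Ido1 in responsive tumor 1 (0.112 FPKM) had a lower confidence bound of 0, and all 10 passed the filter on low values in each comparison.

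The mice were C57BL/6 and carried the tumor in the liver, where pieces of Hepa1-6 tumor first grown under the skin had been implanted. They received 5 injections of PBS or of an antibody to PD-1, an inhibitory receptor of T cells, between day 10 and day 26 at intervals of 4 days, and tumors were taken on day 27. Groups of 3 mice, with 1 whole tumor each, were sequenced: PBS-treated tumors, anti-PD-1 antibody-nonresponsive tumors (the 3 largest after antibody) and anti-PD-1 antibody-responsive tumors (the 3 smallest), while tumors of intermediate size were left out. The antibody groups were therefore set by tumor size after treatment, and a difference between them is a difference between large and small treated tumors. In tissue from whole tumors, fewer cells of a type and less RNA per cell cannot be told apart.

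As background, interferon-gamma is released mainly by activated T cells and NK cells and binds a receptor made of IFNGR1 and IFNGR2. The kinases JAK1 and JAK2 on the receptor then pass the signal to the nucleus, where it acts through gamma-activated sites (GAS) in promoters. IRF1, itself induced in this way, binds interferon-stimulated response elements (ISRE) and so extends the response. Guanylate-binding proteins (the Gbp genes) and immunity-related GTPases (Irgm1, Igtp, Iigp1) are large GTPases that gather on the vacuoles of intracellular microbes, and IDO1 breaks down tryptophan, which restrains T cells.

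The promoters of 7 of the 10 genes are in the RefSeq table used here (GRCm38.p6), and they are shown because they carry the letters of the elements through which interferon-gamma acts. Each line gives the 150 bases before the most upstream start, 5′ to 3′ on the gene's strand, with matches in capitals. GAS was searched as TTCNNNGAA, which reads the same on both strands, and ISRE as GAAANNGAAA on both strands (TTTCNNTTTC on the shown strand when it lies on the other).
Gbp2, chr3:142620513-142620662, plus strand: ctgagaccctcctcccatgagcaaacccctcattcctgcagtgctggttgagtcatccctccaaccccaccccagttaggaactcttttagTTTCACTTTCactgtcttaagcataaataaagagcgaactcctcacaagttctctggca
Gbp3, chr3:142559894-142560043, plus strand: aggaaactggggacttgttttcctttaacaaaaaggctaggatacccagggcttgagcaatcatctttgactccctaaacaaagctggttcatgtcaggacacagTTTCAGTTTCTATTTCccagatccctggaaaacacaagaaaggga
Gbp5, chr3:142496784-142496933, plus strand: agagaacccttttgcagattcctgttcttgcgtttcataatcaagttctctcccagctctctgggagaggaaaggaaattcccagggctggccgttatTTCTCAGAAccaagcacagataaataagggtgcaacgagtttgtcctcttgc
Gbp7, chr3:142530186-142530335, plus strand: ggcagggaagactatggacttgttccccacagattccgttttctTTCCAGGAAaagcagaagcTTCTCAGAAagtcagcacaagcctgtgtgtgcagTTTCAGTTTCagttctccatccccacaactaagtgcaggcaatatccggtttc
Irgm1, chr11:48871421-48871570, minus strand: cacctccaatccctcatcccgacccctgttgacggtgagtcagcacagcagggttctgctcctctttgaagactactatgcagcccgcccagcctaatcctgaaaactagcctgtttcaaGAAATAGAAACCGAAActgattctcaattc
Igtp, chr11:58199406-58199555, plus strand: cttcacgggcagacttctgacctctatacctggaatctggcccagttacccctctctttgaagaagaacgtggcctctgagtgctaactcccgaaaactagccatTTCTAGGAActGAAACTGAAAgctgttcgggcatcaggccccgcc
Irf1, chr11:53769864-53770013, plus strand: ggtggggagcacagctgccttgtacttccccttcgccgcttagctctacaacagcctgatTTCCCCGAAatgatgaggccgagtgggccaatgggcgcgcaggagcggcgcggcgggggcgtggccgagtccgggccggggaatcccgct

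All 7 promoters held GAS or ISRE letters within the 300 bases searched (250 before and 50 after the start), against 11.3% of the 32851 mouse promoters of that length. ISRE letters stood in 6 of the 7, against 3.44% of all promoters, and GAS letters in 4 of the 7, against 8.30%. Gbp5, Gbp7 and Igtp held both. Irf1 had only a GAS match, at -90 from the start, and Gbp2, Gbp3 and Irgm1 had only ISRE matches, which overlap each other in Gbp3 and in Irgm1. For Gbp5 a further GAS match at -245 and the ISRE match at -165 lie outside the stretch shown. A match is a run of letters and not a measured binding site. Gbp4, Iigp1 and Ido1 are not shown.

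Relative depth was 0.939 to 1.07 of the first library, estimated from the confidence bounds of FPKM, and the absolute depth is unknown. Entries without a gene name held between 19.2% (PBS tumor 3) and 81.5% (PBS tumor 1) of the summed FPKM of a library. Nonresponsive tumor 1 and responsive tumor 1, a pair picked after the values were seen, stood apart from the rest in some loci. Of these, 18 were at 10 FPKM or more in each of the other 7 tumors and under 1 FPKM in both of the pair, and 5 showed the opposite. Ido1 was among the 18. No other pair was counted in this way. Over loci at 1 FPKM or more in any tumor, Pearson's r of either with the other 7 tumors was 0.71 to 0.94, against 0.79 to 0.95 among those 7. Hepatocyte markers, 10 genes in all, ranged in summed level from 325 to 4097 FPKM in PBS tumors, 2769 to 9907 FPKM in nonresponsive tumors and 8973 to 15555 FPKM in responsive tumors, with albumin (Alb) lowest in PBS tumor 1 at 173 FPKM and highest in responsive tumor 1 at 5041 FPKM. Of the Hepa1-6 markers, Afp, the fetal liver protein that these cells make, was at 0.321 FPKM in nonresponsive tumor 1 and 0.646 FPKM in responsive tumor 1 and between 4.40 and 56.5 FPKM elsewhere, and was thus nearly absent from those 2 tumors. Gpc3 was between 2.50 and 11.5 FPKM in all 9 tumors. Igf2 went the other way, at 6.13 FPKM in responsive tumor 1 and 5.47 FPKM in nonresponsive tumor 1. Elsewhere Igf2 was between 0.771 and 5.20 FPKM. H19 was lowest in PBS tumor 2 (2.87 FPKM) and highest in nonresponsive tumor 3 (39.3 FPKM). The near absence from these 2 tumors was thus that of Afp and not of the Hepa1-6 markers as a whole. Pancreatic genes were high in nonresponsive tumor 2 alone, where Ctrb1 was at 415 FPKM against 0 in the other 8 tumors. The skeletal muscle genes Ckm and Mylpf were highest in nonresponsive tumor 3 (54.8 and 89.0 FPKM), followed by PBS tumor 1 (12.5 and 42.7 FPKM), and the part of muscle or pancreas in the results was not tested.

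In the GENCODE annotation of GRCm38, Gbp5 (chr3:142493978-142522344), Gbp7 (chr3:142530342-142550149), Gbp3 (chr3:142560026-142573209) and Gbp2 (chr3:142620602-142638008) stand in a row on the plus strand of chromosome 3. Gbp4 (chr5:105115767-105139586) lies on chromosome 5 and Ido1 (chr8:24584136-24597009) on chromosome 8, both on the minus strand. Irgm1 (chr11:48861968-48871683), Irf1 (chr11:53770014-53778374) and Igtp (chr11:58199556-58207591) lie on chromosome 11 but far from each other. Of the genes placed here, neighbors in position are thus those of chromosome 3. The tables name several genes in 1 entry where the assembled transcripts overlapped. Gbp5, Irgm1, Irf1 and Ido1 had entries of their own in all 9 tumors. Gbp4 always shared its entry with Gbp6, Gbp8, Gbp9, Gbp10 and Gbp11, Gbp7 with a gene model, and Igtp with Irgm2, so that their values are those of a cluster. The entry of Igtp also held Gm12250, except in PBS tumor 1, nonresponsive tumor 1 and responsive tumor 3. Gbp2 shared with its neighbor Gbp2b in 4 tumors and with Gbp3 in nonresponsive tumor 1, and Iigp1 shared with varying neighbors. The guanylate-binding proteins and immunity-related GTPases are near-identical in stretches, so reads could be split between them in other ways too.

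Of the guanylate-binding protein genes, Gbp2 was the most abundant by FPKM. It was at 129, 330 and 255 FPKM in PBS tumors 1 to 3, at 374, 291 and 348 FPKM in nonresponsive tumors and at 86.9, 305 and 237 FPKM in responsive tumors. The level in responsive tumor 1 was below that of the other 8 tumors, and the groups overlapped. On the log2 scale Gbp2 differed by -0.86 between responsive and nonresponsive tumors (SE 0.50, 95% interval -2.08 to 0.36, adjusted p = 0.957, limma).

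Gbp3 was at 62.1, 83.7 and 67.6 FPKM in PBS tumors, at 374, 74.8 and 102 FPKM in nonresponsive tumors and at 20.8, 82.2 and 60.0 FPKM in responsive tumors. Its value in nonresponsive tumor 1 is that of an entry shared with Gbp2 and stood above all others. The log2 difference between responsive and nonresponsive tumors was -1.57 (SE 0.77, adjusted p = 0.900, limma), and -0.79 (adjusted p = 0.955) with Gbp2, Gbp2b and Gbp3 summed as 1 locus in all tumors. That locus was at 195, 414 and 323 FPKM in PBS tumors, 378, 376 and 462 FPKM in nonresponsive tumors and 109, 387 and 297 FPKM in responsive tumors. Nonresponsive tumor 1 no longer stood above the others in these sums.

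Gbp4, with the Gbp genes of its cluster, was at 141, 318 and 201 FPKM in PBS tumors, 170, 236 and 317 FPKM in nonresponsive tumors and 69.8, 291 and 208 FPKM in responsive tumors. Its value in responsive tumor 2 had Cufflinks bounds of 0 and 787 FPKM, so its precision is unknown. Gbp5, known for promoting inflammasome assembly in macrophages, was at 21.7, 73.9 and 46.6 FPKM in PBS tumors, 89.6, 57.1 and 68.4 FPKM in nonresponsive tumors and 28.3, 58.8 and 56.6 FPKM in responsive tumors. PBS tumor 1 had the lowest Gbp5 level, followed by responsive tumor 1. Gbp7 was at 35.8, 69.0 and 44.0 FPKM in PBS tumors, 43.3, 58.3 and 54.1 FPKM in nonresponsive tumors and 12.7, 44.2 and 33.5 FPKM in responsive tumors. Here responsive tumors 1 and 3 lay below all 3 nonresponsive tumors and responsive tumor 2 among them. Gbp7 differed by -0.92 on the log2 scale between responsive and nonresponsive tumors (SE 0.47, 95% interval -2.07 to 0.23, adjusted p = 0.900, limma).

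Among the immunity-related GTPases, Irgm1, which regulates the others on cell membranes, varied least. It was at 85.1, 110 and 120 FPKM in PBS tumors, 121, 108 and 114 FPKM in nonresponsive tumors and 57.5, 133 and 94.5 FPKM in responsive tumors. Igtp (also called Irgm3), measured with Irgm2 and in most tumors with Gm12250, was at 166, 299 and 267 FPKM in PBS tumors, 164, 256 and 294 FPKM in nonresponsive tumors and 83.6, 370 and 187 FPKM in responsive tumors. Where Gm12250 had an entry of its own, the summed locus was at 200 FPKM (PBS tumor 1), 203 FPKM (nonresponsive tumor 1) and 248 FPKM (responsive tumor 3). The highest and the lowest tumor for Igtp and for Irgm1 were both responsive tumors, numbers 2 and 1. Iigp1, an effector of the family, was at 86.8, 272 and 147 FPKM in PBS tumors, 179, 235 and 255 FPKM in nonresponsive tumors and 144, 226 and 176 FPKM in responsive tumors. Cufflinks gave no usable bounds for Iigp1 in nonresponsive tumors 1 and 3 (a lower bound of 0 and an upper bound of 88589 and 80550 FPKM), so the precision of these values is unknown.

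Irf1, the transcription factor gene, was at 119, 190 and 180 FPKM in PBS tumors, 195, 140 and 213 FPKM in nonresponsive tumors and 81.2, 226 and 134 FPKM in responsive tumors. The lowest tumor was again responsive tumor 1, followed by PBS tumor 1. Irf1 differed by -0.41 on the log2 scale between responsive and nonresponsive tumors (SE 0.42, 95% interval -1.44 to 0.62, adjusted p = 0.973, limma).

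Ido1 behaved differently from the other 9 genes. It was at 43.3, 96.2 and 66.7 FPKM in PBS tumors, at 0.410, 75.8 and 132 FPKM in nonresponsive tumors and at 0.112, 112 and 68.1 FPKM in responsive tumors. Nonresponsive tumor 1 and responsive tumor 1 were thus near 0, and the other 7 tumors lay between 43.3 and 132 FPKM. These are also the tumors in which Afp was near 0, while the other 9 genes were expressed in both. In nonresponsive tumor 1, Gbp5 at 89.6 FPKM was at its highest of all 9 tumors. Ido1 was itself among the 18 loci counted as low in both of these libraries. Whether its low level is tied to the other loci that set them apart was not tested. The log2 difference of Ido1 between responsive and nonresponsive tumors was -0.24, with a 95% interval from -6.23 to 5.74 (limma), so its direction was not determined. Leaving out responsive tumor 1 gave a difference of 1.86, and leaving out nonresponsive tumor 1 gave -2.30.

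**Figure D1:**
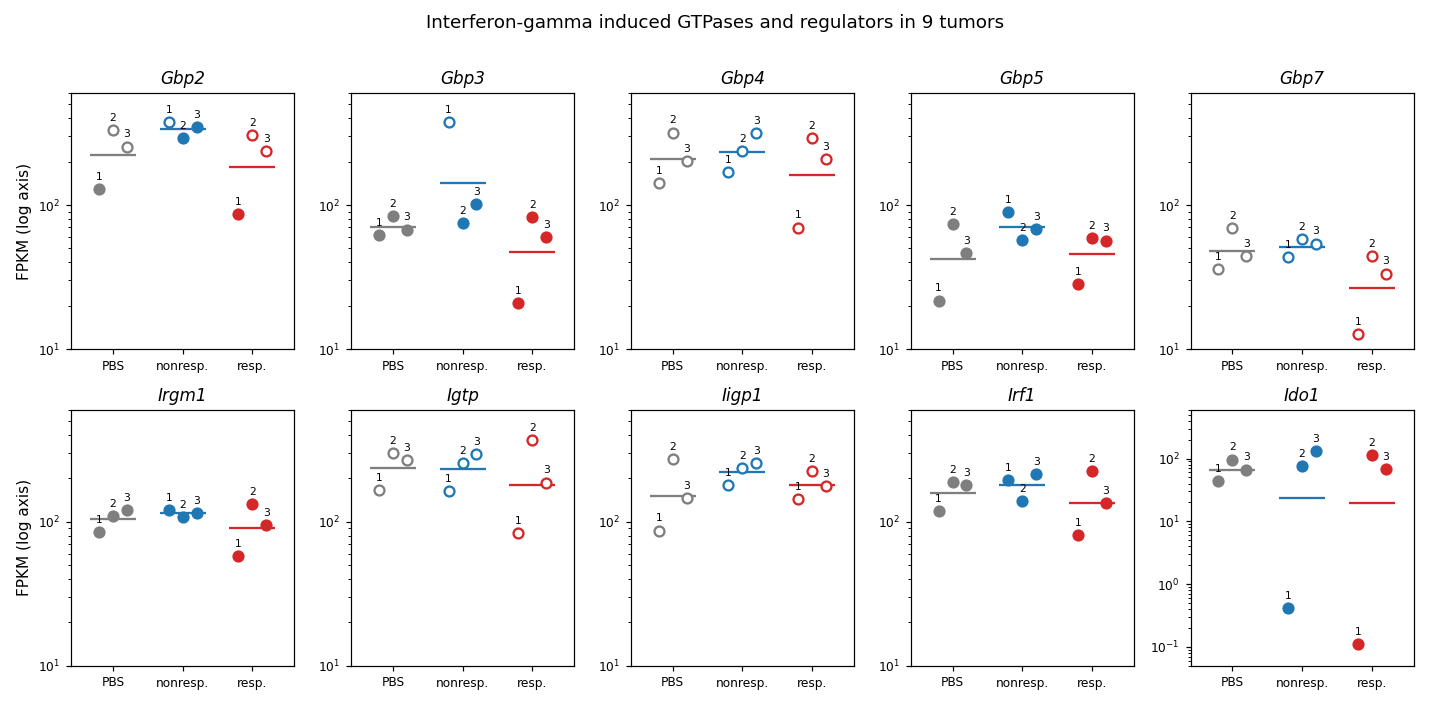
FPKM (log axis) of each gene in each tumor, with the tumor number beside each point. Open points share an entry with another gene in that tumor and filled points do not, horizontal lines give the group mean of log2(FPKM + 1) turned back into FPKM, and the Ido1 panel has a longer axis. Responsive tumor 1 was lowest for 8 of the 10 genes, and Ido1 was near 0 in nonresponsive tumor 1 and responsive tumor 1.

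The tumors differed more than the groups. Responsive tumor 1 was the lowest of the 9 tumors for 8 of the 10 genes and among the 2 lowest for all 10, and PBS tumor 1 was lowest for the remaining 2, Gbp5 and Iigp1. Over the 10787 genes at 1 FPKM or more in all tumors, responsive tumor 1 was lowest for 26.5% and PBS tumor 1 for 22.1%. Against the mean of the other 8 tumors on the log2 scale, the median of the 10 genes was -1.57 in responsive tumor 1 and -0.43 in PBS tumor 1, and the medians over the 10787 genes were -0.17 and 0.11. PBS tumor 2, nonresponsive tumor 3 and responsive tumor 2 were above the mean of the others for all 10 genes, with medians of 0.56, 0.50 and 0.41. High tumors therefore occurred in each of the 3 groups.

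**Figure D2:**
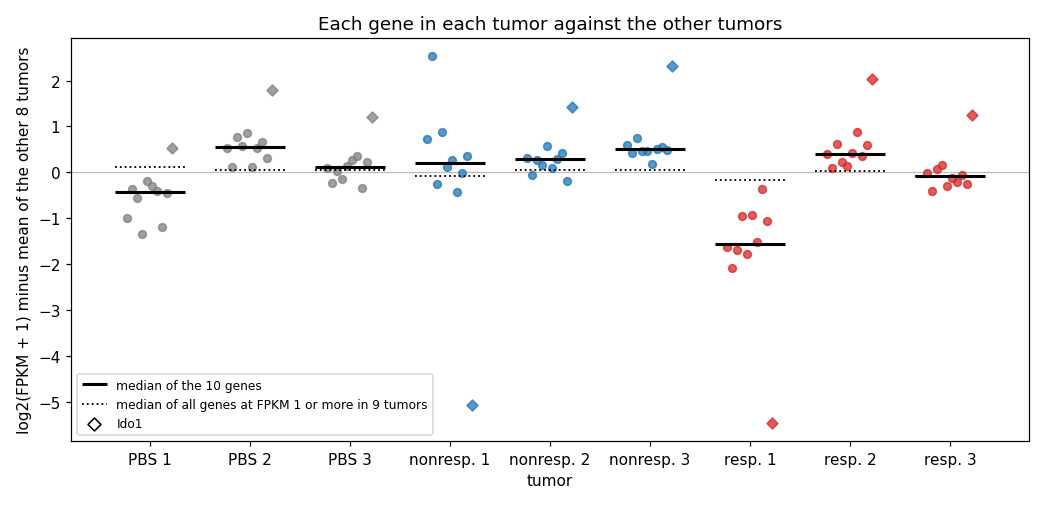
Each point is 1 of the 10 genes, as log2(FPKM + 1) in that tumor minus the mean of the other 8 tumors, with Ido1 as a diamond. Solid bars give the median of the 10 genes and dotted bars the median of all genes at 1 FPKM or more in all tumors. In responsive tumor 1 the 10 genes had a median of -1.57, and the gap to the median of all genes was wider there than in the other 8 tumors.

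Across the 9 tumors the levels of the genes other than Ido1 were correlated. Over the 36 pairs of the other 9 genes, Pearson's r of log2(FPKM + 1) ranged from 0.28 to 0.95 with a median of 0.77. It ranged from 0.51 to 0.95 over the 28 pairs that leave out Gbp3 too, whose shared value in nonresponsive tumor 1 lowers its correlations. The highest values were those of Gbp4 with Igtp and Irgm1 with Irf1, both at 0.95, and these pairs share no entry, although Gbp4 had no usable bounds in responsive tumor 2. Ido1 had r between -0.04 and 0.84 with the others. These are descriptions over 9 tumors of 3 groups. Over the 7 tumors other than responsive tumor 1 and PBS tumor 1, the 36 pairs had a median r of 0.38, from -0.52 to 0.86, with 31 above 0. The correlations were thus weaker without those 2 tumors, and leaving out the lowest tumors also narrows the range of levels.

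The comparison of responsive with nonresponsive tumors asks whether the interferon-gamma program differed between small and large tumors after the antibody. All 10 genes were lower in responsive tumors by their fitted means, with log2 differences between -1.57 (Gbp3) and -0.24 (Ido1) and a median of -0.47, beside a median of -0.07 over all 13845 genes tested, of which 57.4% were lower. None of the 10 passed an adjusted p of 0.05, where 0.116% of all genes did, and none had an unadjusted p under 0.05, where 5.49% of all genes did (limma). None of the 10 had groups that did not overlap, against 10.5% of all genes. Exact two-sided permutation tests over the 3 and 3 tumors gave p between 0.2 and 0.7, where the smallest p possible is 0.1. The size of the difference depended on responsive tumor 1: without it the median of the 10 genes was -0.09. Gbp4 (0.07), Igtp (0.19) and Ido1 (1.86) were then higher in responsive tumors. Without both tumors that stood apart the median was -0.17, with Irgm1 at 0.02 and Irf1 at 0.01. The median thus stayed negative, while the direction of single genes changed. Without responsive tumor 2 the median was -0.91.

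Compared with PBS tumors, responsive tumors had lower fitted means for 8 of the 10 genes and higher ones for Gbp5 (0.11) and Iigp1 (0.24), with a median log2 difference of -0.31 beside -0.11 over all 13852 genes. The largest differences were those of Ido1, at -1.69 (SE 1.80), and Gbp7, at -0.81 (SE 0.51, adjusted p = 0.391, limma). None of the 10 genes passed an adjusted p of 0.05 (0.231% of all genes) or an unadjusted p of 0.05 (17.2% of all genes), and none had groups that did not overlap (28.0% of all genes). The share of all genes that differed at the unadjusted threshold was the highest of the 4 comparisons, and hepatocyte markers were among them, with 8 of 10 higher in responsive tumors at that threshold. Without responsive tumor 1 the median of the 10 genes was 0.19 in place of -0.31, so the direction depended on that tumor. Leaving out PBS tumor 1 gave -0.65, PBS tumor 2 -0.14 and responsive tumor 2 -0.70.

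Nonresponsive tumors had higher fitted means than PBS tumors for 8 of the 10 genes, with a median log2 difference of 0.17 beside -0.06 over all 13806 genes. The values were 1.00 for Gbp3 (SE 0.62), 0.72 for Gbp5 (SE 0.47), 0.60 for Gbp2 (SE 0.39) and 0.54 for Iigp1 (SE 0.45), each with an adjusted p of 0.718 (limma). Igtp was at -0.03 and Ido1 at -1.45. None of the 10 genes passed an adjusted p of 0.05 (0.0797% of all genes) or an unadjusted p of 0.05 (3.22% of all genes), and none had groups that did not overlap (8.20% of all genes). Without PBS tumor 1, the lowest of the 3 PBS tumors for all 10 genes, the median was -0.02, without PBS tumor 2 it was 0.42, without nonresponsive tumor 1 0.35, without nonresponsive tumor 2 0.27 and without nonresponsive tumor 3 0.10. No difference in the 10 genes was detectable with these 6 tumors.

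All 6 antibody-treated tumors were also compared with the 3 PBS tumors. The median log2 difference of the 10 genes was -0.03, beside -0.07 over all 14474 genes, with 4 genes higher and 6 lower. The highest value was that of Gbp5, at 0.41 (95% interval -0.55 to 1.38, adjusted p = 0.569, limma), and Irf1 was at -0.03 (95% interval -0.81 to 0.74). None of the 10 genes passed an adjusted p of 0.05 (0.0345% of all genes) or an unadjusted p of 0.05 (10.5% of all genes). The median was 0.17 without responsive tumor 1, 0.15 without PBS tumor 2, -0.23 without PBS tumor 1 and 0.25 without both tumors that stood apart so that its direction changed with the tumors included. These 4 comparisons share tumors and are not independent of each other.

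**Figure D3:**
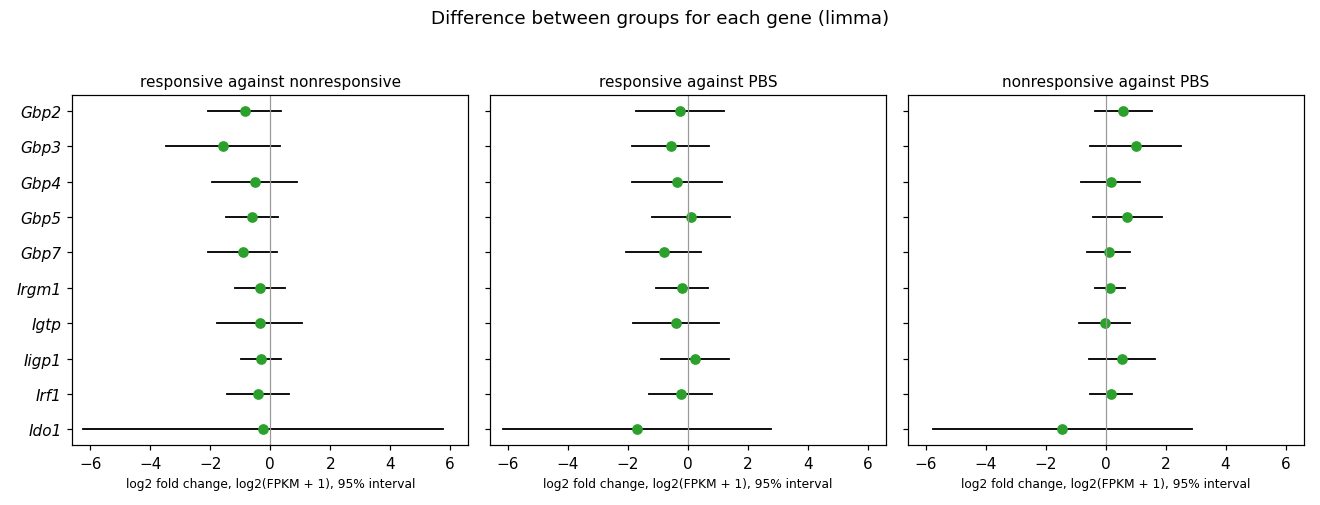
Log2 difference of each gene in the 3 comparisons between pairs of groups, on the log2(FPKM + 1) scale, as points with 95% intervals from limma. All intervals include 0, and that of Ido1 is the widest, from -6.23 to 5.74 between responsive and nonresponsive tumors.

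The order of the groups was similar from gene to gene. By the mean FPKM, nonresponsive tumors were highest for 9 of the 10 genes and responsive tumors lowest for 8. By the group median, nonresponsive tumors were also highest for 9, and responsive tumors were lowest for 6 and PBS tumors for 4. The medians of Gbp2 were 255 FPKM in PBS tumors, 348 FPKM in nonresponsive tumors and 237 FPKM in responsive tumors, and those of Irf1 were 180, 195 and 134 FPKM. For all 10 genes, groups next to each other in this order overlapped and passed no test of the difference. The genes are no replicates of each other, since all were measured in the same 9 tumors. How often this order occurs over all genes was not counted. By fitted means, 57.4% of all genes tested were lower in responsive than in nonresponsive tumors. Lower than in PBS tumors were 57.8% in responsive and 55.4% in nonresponsive tumors.

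Ifng, the gene of the ligand interferon-gamma, was at 1.44, 7.56 and 3.39 FPKM in PBS tumors, 4.62, 5.50 and 6.43 FPKM in nonresponsive tumors and 1.80, 6.10 and 6.31 FPKM in responsive tumors. The entry of Ifng always named a gene model too. PBS tumor 1 and responsive tumor 1 had the lowest Ifng levels, and they were also the tumors with the lowest mean over the 9 genes other than Ido1, 6.34 and 5.72 on the log2(FPKM + 1) scale against 6.80 to 7.35 in the others. Among the others the order was not shared: responsive tumor 3 had the third highest Ifng and the third lowest mean of the 9 genes. Ifng differed by -0.30 on the log2 scale between responsive and nonresponsive tumors (SE 0.42, adjusted p = 0.974, limma).

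**Figure D4:**
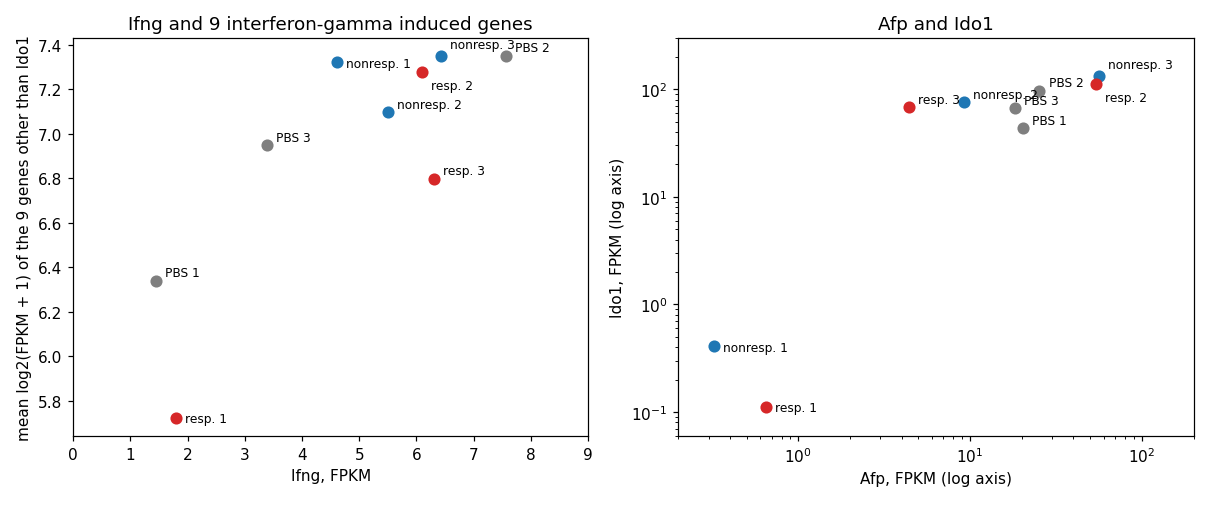
Left, FPKM of Ifng against the mean log2(FPKM + 1) of the 9 genes other than Ido1, and right, FPKM of Afp against that of Ido1 on log axes, with 1 point per tumor. PBS tumor 1 and responsive tumor 1 are lowest on both axes at left, and nonresponsive tumor 1 and responsive tumor 1 are near 0 for both genes at right.

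Of the ligand, receptor and signaling genes fixed for comparison, 10 were tested. None had an unadjusted p under 0.05 between responsive and nonresponsive tumors, and all 10 were lower in responsive tumors, with a median log2 difference of -0.30. Both receptor genes were present in all tumors, Ifngr1 between 54.6 and 92.8 FPKM and Ifngr2 between 17.3 and 95.3 FPKM. Ifngr2 was highest in nonresponsive tumor 1. Of the kinases, Jak1 was between 37.1 and 71.0 FPKM and Jak2 between 30.2 and 76.0 FPKM. Jak2 was lowest in responsive tumor 1, and its log2 difference of -0.69 between responsive and PBS tumors was the only one of this list at an unadjusted p under 0.05 in any of the 4 comparisons (SE 0.23, adjusted p = 0.281, limma).

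Among the feedback inhibitors, Socs1 was between 10.8 FPKM in PBS tumor 1 and 83.1 FPKM in nonresponsive tumor 1, with 26.3 FPKM in responsive tumor 1, Socs3 was between 65.0 and 158 FPKM and the phosphatase gene Ptpn2 between 18.7 and 30.9 FPKM. Irf2, which competes with IRF1 at its sites, was between 25.0 and 39.7 FPKM.

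The other guanylate-binding protein genes had no values apart from those of the 10 genes, since they shared entries with Gbp2 or Gbp4 in some or all tumors. Of the other immunity-related GTPases, the Tgtp1 and Tgtp2 entry was at 250, 264 and 225 FPKM in PBS tumors, 193, 237 and 249 FPKM in nonresponsive tumors and 89.0, 300 and 249 FPKM in responsive tumors. Ifi47 was between 132 and 185 FPKM apart from 82.3 FPKM in PBS tumor 1 and 76.6 FPKM in responsive tumor 1. The same 2 tumors were thus lowest for Ifi47, and responsive tumor 1 for Tgtp1 and Tgtp2. Gm4841 was at 8.77 FPKM or less. None of these passed an unadjusted p of 0.05 in any comparison.

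Of 13 further genes that interferon-gamma induces, none passed an unadjusted p of 0.05 in any of the 4 comparisons, and 10 were lower in responsive than in nonresponsive tumors, with a median of -0.19. Cd74, the invariant chain of MHC class II, was the most abundant, between 1385 FPKM in PBS tumor 1 and 3222 FPKM in responsive tumor 3. Cxcl9, a chemokine that draws T cells, was at 140, 225 and 158 FPKM in PBS tumors, 182, 376 and 577 FPKM in nonresponsive tumors and 110, 155 and 335 FPKM in responsive tumors. The highest 2 tumors were nonresponsive, and the groups overlapped. Psmb8, an immunoproteasome subunit, was listed at 0 in PBS tumor 2 and shared a value with Tap1 in responsive tumors 2 and 3, so that neither gene is compared by itself, although the counts of this list include both.

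Type I interferon-stimulated genes, which are driven through ISRE elements, were lower in responsive than in nonresponsive tumors for 14 of 14, with a median of -0.58. At an unadjusted p under 0.05 there were 2, Ifit2 at -1.34 and Oas1a at -1.20, and neither passed the adjusted threshold. Ifit2 shared a value with Ifit3 in PBS tumors 2 and 3 and in nonresponsive tumor 1, but in no responsive tumor. Its difference is therefore not that of Ifit2 by itself, although the counts of this list include both genes. The 3 most abundant were Isg15 between 89.4 and 243 FPKM, Irf7 between 36.0 and 119 FPKM and Oasl2 between 32.0 and 95.7 FPKM. Irf7 and Oasl2 were both lowest in responsive tumor 1.

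Of 8 genes of tryptophan breakdown and its sensing, Tdo2, the liver enzyme for the same first step as IDO1, was higher in responsive than in nonresponsive tumors at an unadjusted p under 0.05, by 1.63 on the log2 scale (SE 0.53, adjusted p = 0.885, limma), and Tdo2, Kmo, Kynu and Haao were higher than in PBS tumors at that threshold. None passed the adjusted threshold. Tdo2 was at 0.753, 15.9 and 14.7 FPKM in PBS tumors, 33.6, 19.2 and 8.80 FPKM in nonresponsive tumors and 86.4, 39.8 and 55.5 FPKM in responsive tumors. It was highest in responsive tumor 1, where Ido1 was at 0.112 FPKM and hepatocyte markers had their highest sum, and the part of hepatocytes in this was not tested. Haao, which works further along the pathway, was between 2.35 FPKM in PBS tumor 1 and 97.3 FPKM in responsive tumor 1. Afmid shared its entry with Syngr2 and was between 123 and 239 FPKM.

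Among the 5 genes whose pattern over the 9 tumors was most like the mean of the 10 genes, out of 10774 candidates outside them, were Cxcl10 (Pearson's r 0.97), Parp9 (0.96), Mta3 (0.94) and Batf2 (0.94). Cxcl10, a chemokine induced by interferon-gamma, was at 163, 292 and 273 FPKM in PBS tumors, 236, 268 and 386 FPKM in nonresponsive tumors and 75.4, 305 and 246 FPKM in responsive tumors. These 4 were lowest in responsive tumor 1 and highest in nonresponsive tumor 3. For Mta3 the range was narrow, from 15.5 to 24.0 FPKM. They were picked for this likeness, so the correlations are a description over 9 tumors.

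Markers of cell types that make or answer interferon-gamma were also measured. T cell and NK cell markers, 12 in all, ranged in summed level from 92.9 to 261 FPKM in PBS tumors, 173 to 197 FPKM in nonresponsive tumors and 174 to 271 FPKM in responsive tumors, lowest in PBS tumor 1. Responsive tumor 1 was at 174 FPKM for the sum, with Prf1 (1.33 FPKM), Cd8a (2.46 FPKM) and Nkg7 (15.1 FPKM) at their lowest there. In the same tumor Cd8b1 and Klrb1c were below their medians over the 9 tumors, and Cd3e and Ncr1 at or close to theirs. Cd3d (12.8 FPKM), Cd3g (29.1 FPKM), Cd2 (17.9 FPKM), Cd4 (15.3 FPKM) and Trac (48.8 FPKM) were above theirs. By the sum, PBS tumor 3 (150 FPKM) and nonresponsive tumors 3 (172.9 FPKM) and 1 (173.7 FPKM) were also below responsive tumor 1 (173.9 FPKM). By the mean log2(FPKM + 1) of the 12 markers, PBS tumor 1 (2.75) and responsive tumor 1 (3.36) were the lowest of the 9, against 3.41 to 4.11 in the others. These 2 tumors also had the lowest mean over the 9 genes other than Ido1, but the place of responsive tumor 1 for the markers depended on the measure. Between responsive and nonresponsive tumors 10 of the 11 tested were higher in responsive tumors, where all 10 interferon-gamma induced genes were lower. The exception was the NK receptor gene Klrb1c, at 14.2, 25.9 and 19.9 FPKM in nonresponsive tumors and 7.78, 3.49 and 6.61 FPKM in responsive tumors. Klrb1c always shared its entry with Klrb1b and a gene model, so these values are not those of Klrb1c by itself. The log2 difference of this entry, -1.61, had the smallest unadjusted p of the list (SE 0.35, adjusted p = 0.844, limma). Ncr1, the other NK receptor gene of the list, was too low to be tested, with means of 0.963 FPKM in nonresponsive and 0.544 FPKM in responsive tumors. Trac, Nkg7 and Cd3g, the most abundant, were all detected in each tumor.

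Macrophage markers, 9 in all, summed to 701 to 1306 FPKM in PBS tumors, 1324 to 2910 FPKM in nonresponsive tumors and 1183 to 1868 FPKM in responsive tumors, and 8 of 9 were lower in responsive than in nonresponsive tumors. All 9 had higher fitted means in nonresponsive than in PBS tumors, with a median log2 difference of 1.02 and 3 at an unadjusted p under 0.05, none past the adjusted threshold. In that comparison 8 of the 10 interferon-gamma induced genes were also higher. The complement genes C1qa, C1qb and C1qc led this list, although C1qb and C1qc shared a value in nonresponsive tumors 1 and 2. That value was counted under both genes in the sums of these 2 tumors. C1qb and C1qc are also among the 3 markers at an unadjusted p under 0.05, so the sums and these differences depend on the shared entry. Dendritic cell markers summed to 33.8 to 72.1 FPKM in PBS tumors, 49.7 to 50.0 FPKM in nonresponsive tumors and 56.1 to 68.3 FPKM in responsive tumors, with Itgax, Ccr7 and Clec9a the highest. Clec9a always shared its entry with Clec1b, so its values are not those of Clec9a by itself. That entry was listed at 0 in PBS tumor 3 and nonresponsive tumor 1. Endothelial markers, led by Pecam1, Cdh5 and Kdr, summed to 54.3 to 104 FPKM, 64.4 to 132 FPKM and 70.7 to 106 FPKM in these groups.

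B cell and plasma cell markers, led by Jchain, Mzb1 and Cd79b, summed to 12.1 to 681 FPKM in PBS tumors, 204 to 413 FPKM in nonresponsive tumors and 220 to 1365 FPKM in responsive tumors. Of the hepatocyte markers, led by Alb, Serpina1a and Apoa1, 6 of 10 exceeded their nonresponsive level in responsive tumors at an unadjusted p under 0.05, with a median log2 difference of 1.42. Responsive tumor 1, lowest for 8 of the 10 interferon-gamma induced genes, had the highest sum of hepatocyte markers (15555 FPKM), and PBS tumor 1, next lowest, had the lowest (325 FPKM). The Hepa1-6 markers Afp, Gpc3, H19 and Igf2 summed to 36.4 to 45.4 FPKM in PBS tumors, 28.8 to 107 FPKM in nonresponsive tumors and 10.7 to 68.4 FPKM in responsive tumors. The part of these cell types in the levels of the 10 genes was not tested.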

How the data were processed

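Total RNA of 9 tumors, 3 per group, was sequenced by the authors (TruSeq libraries; the submitters' processing notes name TopHat2 2.1.1, Bowtie2 2.2.4 and build mm8). The deposited Cufflinks tables give FPKM per gene entry and tumor with its confidence bounds, also FPKM per the file headers. Only 3.36% of 32189 Ensembl genes had the GRCm38 start, so no positions from these tables are printed. A deposited table of the authors' own comparisons, with their fold changes and p-values, was not used. FPKM was summed by symbol over all entries naming it, and 13 symbols with a failed estimate were left out, giving 50406 features.

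A feature was tested when 3 or more of the tumors compared reached an FPKM of 1, on log2(FPKM + 1) with a pseudocount of 1, by limma 3.58.1 (lmFit, eBayes with trend, R 4.3.3) with Benjamini-Hochberg adjustment over all of them, at a threshold of 0.05. These fold changes understate low genes. limma was tested on simulated data first. Exact permutation tests, correlations and motif searches ran in Python 3.11.15 with scipy 1.17.1. RefSeq promoters are of GRCm38.p6. Each tumor is 1 mouse.

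The genes, lists and tests were chosen with earlier results of these data known. Named were all 10 genes, all genes of the related GTPase and signaling lists, the 3 most abundant of each other list, and the 5 symbols most correlated with the mean of the z-scaled genes. A gene that this rule names is not reported here by itself. Ifit2, Ifit3, Oas1a, Kmo, Kynu, Prf1, Cd8a, Cd8b1, Cd3d, Cd3e, Cd2, Cd4, Klrb1c, Ncr1, Igf2, Ckm and Mylpf were named after their values were seen. Deviations of same-numbered tumors had r between -0.53 and 0.62, the highest for responsive with nonresponsive tumor 1, the tumors that stood apart. Since r was not positive in every pair, the numbers were not used to pair tumors. Alternatives were other scalings, filters, pseudocounts and models, a replicate block, joined loci and leaving out tumors.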

Additional observations from a re-analysis of the deposited data

Results flagged for a closer look

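Among the 6 antibody-treated tumors, Gbp2 at 86.9 FPKM and Gbp7 at 12.7 FPKM in responsive tumor 1 lay far below the next tumor: the gap made up 0.686 and 0.629 of the whole range on the log2 scale, above Dixon's 95% critical value for 6 samples. Both ends were examined for each of the 10 genes, and chance alone marks about 1 in 20 such groups. The genes share the same 6 tumors, so the 2 results are not separate. Irgm1, Gbp5 and Gbp4 came close in the same tumor, with gaps of 0.590, 0.600 and 0.588, below that value.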

How the results depend on the processing

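None of the 650 fits of 1 of the 10 genes under an alternative gave an adjusted p under 0.05 (lowest 0.199), 6 gave an unadjusted p under 0.05, and 49 changed sign. Unadjusted, these were Gbp3 in the fit of all 9 tumors and Gbp7 with the replicate block and without responsive tumor 2 (responsive against nonresponsive), and, without PBS tumor 2, Gbp5 and Iigp1 in nonresponsive against PBS and Iigp1 in antibody against PBS. So 1 gene was called at that threshold in responsive against nonresponsive under the 9-tumor fit, 1 under the block, and 0 to 1 when leaving out a tumor, against 0 to 2 for nonresponsive and 0 to 1 for all antibody tumors against PBS.

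Leaving out 1 tumor at a time, genes of the whole table at an unadjusted p under 0.05 numbered 310 to 1426 (760 with all tumors) for responsive against nonresponsive, 1005 to 3871 (2385) for responsive against PBS, 217 to 1860 (445) for nonresponsive against PBS and 340 to 3133 (1515) for antibody against PBS, and at an adjusted p under 0.05 0 to 32 (16), 7 to 49 (32), 2 to 30 (11) and 5 to 18 (5). Over these comparisons in the same order, joined loci gave 8, 19, 5 and 1 genes at the adjusted threshold. Without a filter the adjusted count was 9 for responsive against nonresponsive, 5 for nonresponsive against PBS (812 unadjusted) and 11 for antibody against PBS. The filter at FPKM 5 gave 8 for responsive against nonresponsive and, unadjusted, 269 for nonresponsive against PBS, and the pseudocount of 0.1 gave 3 for antibody against PBS. The fit of all 9 tumors gave 16 for responsive against PBS, 6 for nonresponsive against PBS and 12 for antibody against PBS. Without both tumors that stood apart, an alternative chosen after seeing the data, the adjusted count was 0 for responsive against nonresponsive (limma, 855 unadjusted), and the unadjusted count was 420 for antibody against PBS.

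With the replicate block, the adjusted counts were 1, 0, 0 and 3, and the unadjusted counts of the last 3 were 948, 237 and 903. The tumors share only a number: correlations of same-numbered deviations were 0.62, 0.02 and -0.13 for responsive with nonresponsive tumors. The block changed no adjusted call of the 10 genes.

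Log2 differences that changed sign when 1 tumor was left out ranged as follows. Responsive against nonresponsive: Gbp4 -0.95 to 0.074, Igtp -0.88 to 0.19 and Ido1 -2.30 to 1.86. Responsive against PBS: Gbp2 -0.65 to 0.28, Gbp4 -0.78 to 0.24, Gbp5 -0.36 to 0.50, Irgm1 -0.49 to 0.11, Igtp -0.92 to 0.15, Iigp1 -0.16 to 0.66, Irf1 -0.60 to 0.13 and Ido1 -2.92 to 0.41. Nonresponsive against PBS: Gbp4 -0.12 to 0.47, Gbp7 -0.10 to 0.37, Irgm1 -0.0076 to 0.24, Igtp -0.29 to 0.21, Irf1 -0.040 to 0.35 and Ido1 -2.67 to 0.61. Antibody against PBS: Gbp2 -0.22 to 0.47, Gbp3 -0.22 to 0.60, Gbp4 -0.38 to 0.20, Gbp5 -0.049 to 0.81, Irgm1 -0.18 to 0.12, Igtp -0.47 to 0.040, Iigp1 -0.0091 to 0.81 and Irf1 -0.24 to 0.15. Without both tumors that stood apart, Irgm1 was at 0.018 and Irf1 at 0.015 between responsive and nonresponsive tumors, and antibody against PBS gave Gbp4 at 0.31, Irgm1 at 0.10, Igtp at 0.18, Irf1 at 0.12 and Ido1 at 0.51. Gbp5 was at -0.026 in responsive against PBS after rescaling without hepatocyte and top genes, and with upper-quartile scaling Irgm1 was at 0.0047 and Irf1 at 0.0093 in antibody against PBS. Rescaling moved the median of all genes by -0.12 in both comparisons of responsive tumors, and the median of the 10 genes was then -0.60 against nonresponsive and -0.45 against PBS tumors. The cause was not tested. The depth of the libraries is unknown, so the precision of low values is too.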
